A study of Mus musculus with 360 samples.

Results

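Calcium buffers, pumps and exchangers were followed in 360 single cells of the adult mouse cochlea through 10 genes of 48440 in the count matrix, chosen by gene symbol. They are the mobile buffer genes Pvalb, Calb1 and Calb2, the calmodulin-binding Pcp4, the annexin Anxa4, the plasma membrane pump genes Atp2b1, Atp2b2 and Atp2b3, and the sodium-calcium exchanger genes Slc8a1 and Slc8a2. All 10 had a row in the matrix and all 10 matched a gene model. The GAP group held 180 cells of genotype Fbxo2CreERT2::Rosa26-tdTomato::Rosa26-GAP, in which tamoxifen releases Gfi1, Atoh1 and Pou4f3, the transcription factors of hair cell formation, from the Rosa26 locus. The control group held 180 cells of genotype Fbxo2CreERT2::Rosa26-tdTomato, so both groups carried the inducible Cre and the tdTomato reporter and both received tamoxifen. The mice were dosed at 3 weeks of age, and their cells were taken at 5 weeks, sorted on tdTomato and EpCAM, and turned into libraries by SMART-MATQ, a whole-transcript single-cell method with unique molecular identifiers (UMIs). Cre is driven from the Fbxo2 locus, so recombination is limited to cells that use this gene.

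Hair cells open calcium-permeable channels in the bundle at every deflection and calcium channels at the synapse at every depolarisation, and they depend on buffers and on extrusion to clear the ion. EF-hand proteins such as parvalbumin (Pvalb), calbindin (Calb1), calretinin (Calb2) and oncomodulin (Ocm) bind free calcium in the cytosol. Plasma membrane calcium ATPases (PMCA, Atp2b1 to Atp2b4) pump it out at the cost of ATP, and sodium-calcium exchangers (NCX, Slc8a1 to Slc8a3) drive it out against the entry of sodium. PMCA2, made from Atp2b2, is the pump of the hair bundle, and its loss in mice causes deafness. Supporting cells surround hair cells and lack the bundle.

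Each deposited sample is 1 cell. The animals behind the cells are not named, which leaves 1 sample per genotype, and no test of the genotype difference was possible. Levels are UMIs summed over a set of cells and scaled to counts per 1000000 UMIs of that set (CPM), with exact Poisson 95% intervals. Ratios have exact conditional-binomial intervals and shares of cells exact Clopper-Pearson intervals. The intervals hold counting error alone, so the spread between animals, plates or cells is not in them. A gene was counted as higher or lower at a 2-fold difference or more, after adding 1 CPM to each level, if it reached 10 CPM in either group. Genotype cannot be told apart from the letter in the sample titles, read here as a plate, because letters C and D hold only GAP cells and letters A and B only control cells. GAP cells were deeper, with a median of 28963 UMIs (range 8550 to 60218) against 21280 (6985 to 55129) in control cells, so shares of cells are also given after thinning each cell to 8000 UMIs. That left every GAP cell and all but 3 of the control cells. Atoh1, a gene of the GAP allele, was at 805 CPM in GAP cells and had 0 UMIs in control cells, though counts cannot tell apart its transgene and native copies. The sort gene Epcam was at 177.8 CPM in GAP cells and 190 CPM in control cells, and the driver gene Fbxo2 at 410 and 696 CPM. The summed level of 11 hair cell markers was 2610 to 3015 CPM in the GAP letters and 223 to 260 CPM in the control letters. This list includes Pou4f3 and Gfi1, which are also genes of the GAP allele, so part of the difference is set by the genotype. Pou4f3 was at 634 (C) and 522 CPM (D) and Gfi1 at 221 (C) and 182.3 CPM (D).

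In all, 8 of the 10 genes were at 10 CPM or more in GAP or control cells. By the 2-fold rule 6 of them were higher in GAP cells, namely Pvalb, Calb2, Pcp4, Anxa4, Atp2b3 and Slc8a2. None was at least 2-fold lower, and Atp2b1 and Atp2b2 lay within 2-fold. Of all 10152 genes at 10 CPM, 13% were higher by the same rule and 6.61% lower. The median log2 ratio was 3.59 over all 10 genes, also with each gene that had 0 UMIs in a genotype put at its bound, against 0.098 over all genes at 10 CPM. Since the genes were chosen with results of these data known, the count describes them and no more. A GAP cell thinned to 8000 UMIs held a UMI of a median of 3 of the 10 genes (range 0 to 7), and 60 of 180 GAP cells held at least 4. A control cell held a median of 1 (0 to 3), and none held 4.

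**Figure D1:**
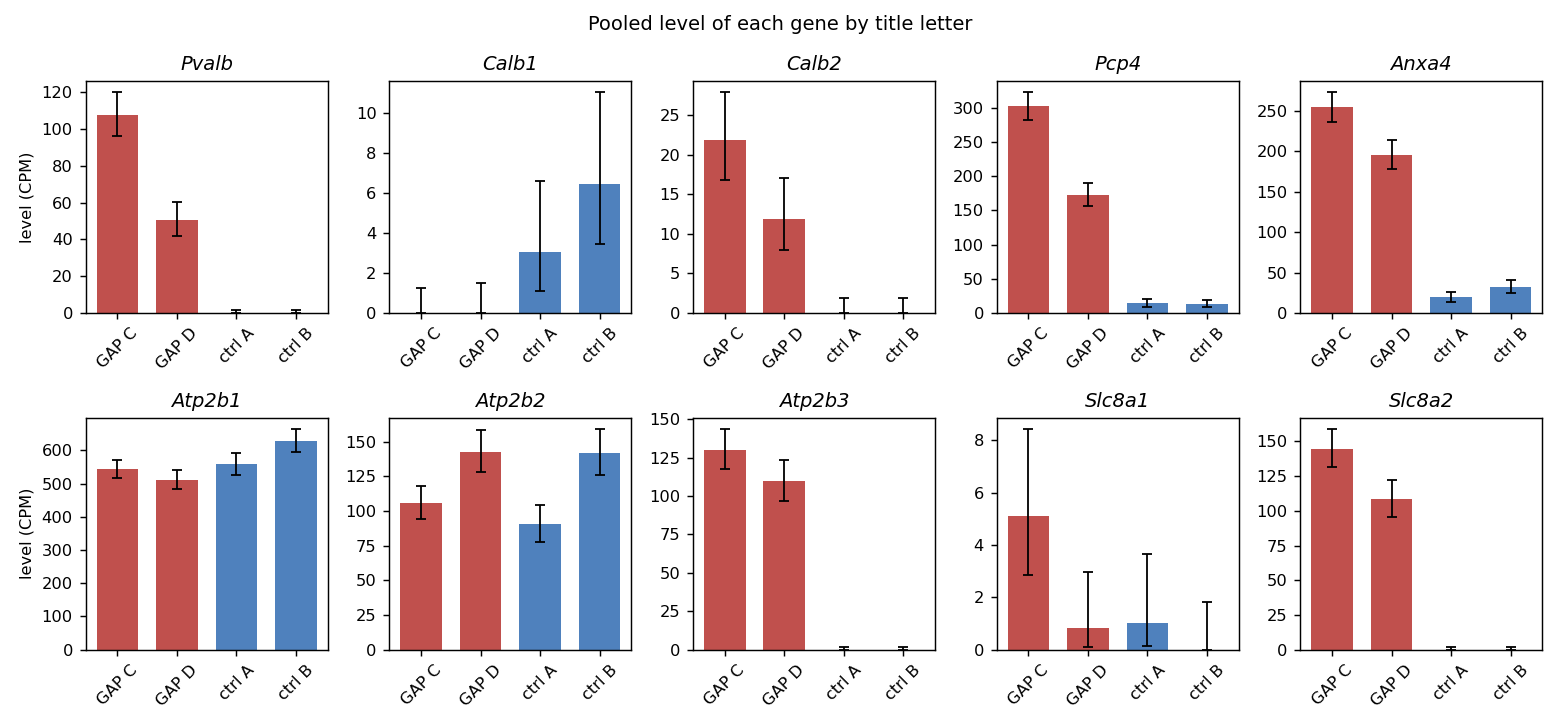
Level of each of the 10 genes in CPM (y axis, a scale for each gene) in the 2 letters of GAP cells (C and D, left, red) and the 2 letters of control cells (A and B, right, blue). Bars are summed levels and error bars exact Poisson 95% intervals. Pvalb, Calb2, Atp2b3 and Slc8a2 are at 0 in both control letters, Calb1 is at 0 in both GAP letters, the Atp2b2 bars of the genotypes overlap in height, and the Atp2b1 bars of both GAP letters (544 and 510 CPM) are below those of both control letters (558 and 629 CPM).

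The promoters of the exchanger Slc8a2 and the buffer gene Pvalb are shown because both genes were detected in GAP cells and had 0 UMIs in control cells, that of Pcp4 because its ratio was the highest among the genes detected in both genotypes, and that of Atp2b1 because it is the pump both genotypes shared. Each is the 250 bases before an annotated start, on the gene's strand, from RefSeq (GRCm38.p6). E-boxes (CANNTG, the motif that Atoh1 and related factors bind, identical on both strands) are in capitals. The Slc8a2 window is chr7:16129576-16129825 (plus strand), the 2 Pvalb windows are chr15:78206401-78206650 and chr15:78204238-78204487 (minus strand), the Pcp4 window is chr16:96467356-96467605 (plus strand) and the Atp2b1 window shown is chr10:98914392-98914641 (plus strand). Atp2b1 has a further window, chr10:98914902-98915151, which is not shown.
Slc8a2: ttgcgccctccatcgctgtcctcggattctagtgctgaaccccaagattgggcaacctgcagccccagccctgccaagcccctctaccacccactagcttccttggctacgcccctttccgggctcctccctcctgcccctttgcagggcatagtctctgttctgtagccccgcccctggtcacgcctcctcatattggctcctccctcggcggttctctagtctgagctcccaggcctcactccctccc
Pvalb, upstream start: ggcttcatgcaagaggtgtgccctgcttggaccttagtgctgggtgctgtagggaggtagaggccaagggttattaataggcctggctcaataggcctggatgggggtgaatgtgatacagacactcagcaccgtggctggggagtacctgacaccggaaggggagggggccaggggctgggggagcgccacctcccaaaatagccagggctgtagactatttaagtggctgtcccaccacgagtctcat
Pvalb, inner start: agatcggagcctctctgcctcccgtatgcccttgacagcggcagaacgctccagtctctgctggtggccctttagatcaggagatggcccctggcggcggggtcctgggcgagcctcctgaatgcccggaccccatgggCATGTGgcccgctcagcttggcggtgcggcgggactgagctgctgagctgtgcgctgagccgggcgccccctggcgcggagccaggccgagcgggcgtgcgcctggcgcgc
Pcp4: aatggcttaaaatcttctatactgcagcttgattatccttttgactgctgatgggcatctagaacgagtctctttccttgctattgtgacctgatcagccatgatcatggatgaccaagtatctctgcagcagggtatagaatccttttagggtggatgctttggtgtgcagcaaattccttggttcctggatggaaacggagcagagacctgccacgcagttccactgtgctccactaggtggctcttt
Atp2b1: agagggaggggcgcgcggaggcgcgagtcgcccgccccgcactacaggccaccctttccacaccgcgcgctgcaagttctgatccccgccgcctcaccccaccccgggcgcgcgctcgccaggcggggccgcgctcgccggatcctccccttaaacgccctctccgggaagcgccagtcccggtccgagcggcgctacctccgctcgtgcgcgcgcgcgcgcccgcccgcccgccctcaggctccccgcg
The RefSeq table held 12 windows for 7 of the genes, and Calb1, Calb2 and Atp2b3 had none. An E-box stood in 5 of the 12 windows, against 66.2% of 32851 windows of this length. CAGATG or its reverse complement CATCTG stood in 0 of the 12 windows and in 14.4% of all windows. The GC content was 63.2% before Slc8a2, 58.4% and 71.6% before Pvalb, 46.8% before Pcp4, and 78.4% (shown) and 80.8% (not shown) before Atp2b1. These matches describe the letters in the windows and nothing about binding.

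The buffers split by genotype. Parvalbumin and calretinin transcripts were found in GAP cells and had 0 UMIs in control cells. Calbindin transcripts were the reverse, but on only 19 UMIs in 7 control cells and under 10 CPM. Pvalb (chr15:78191114-78206400, minus strand) ranged from 0 to 2017 CPM over GAP cells with a median of 0, and was 0 in every control cell. UMIs of it were in 47 of 180 GAP cells, and the 5 cells with most of them held 54.8%, so a few GAP cells were very high and most had none. The pooled level was 81.6 CPM in GAP cells (74.2 to 89.6, 438 UMIs), made up of 107.5 CPM for letter C and 50.5 CPM for letter D, and at least 108.9-fold above the limit of 3 counts in control cells. The log2 ratio was 6.37 over all cells and 5.69 without letter C. The 17 GAP cells to which the authors gave no cluster, 14 of them in letter C and with a median of 49455 UMIs, held 31.5% of the Pvalb UMIs and 16.1% of all UMIs of GAP cells, and the log2 ratio over cells with a cluster was 6.08. At equal depth 14.4% of GAP cells had a UMI (9.66 to 20.4) and 0 control cells, which by the limit of 3 counts allows up to 1.69%.

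Calb2 (chr8:110137502-110168210, minus strand) ranged from 0 to 588 CPM over GAP cells, again with a median of 0, and was 0 in every control cell. The 19 GAP cells with a UMI were unevenly loaded, and 5 of them held 64.5% of the 93 UMIs. The level was 17.3 CPM in GAP cells (13.99 to 21.2), with 21.8 and 11.9 CPM in letters C and D, at least 23.1-fold above the limit in control cells, and 6.67% of GAP cells had a UMI at equal depth. Calb1 (chr4:15881264-15908064, plus strand) went the other way at a low level. It had 0 UMIs in GAP cells and 19 UMIs in 7 control cells, of which the highest had 297 CPM. That is 4.75 CPM in control cells (2.86 to 7.42), at least 8.49-fold above the limit in GAP cells, and both genotypes were under 10 CPM. By letter Calb1 was at 3.02 (A) and 6.44 CPM (B) in control cells. At equal depth 0 of 180 GAP cells and 3 control cells (1.69%) had a Calb1 UMI, so the difference in shares was not detectable at this depth. Oncomodulin (Ocm), the buffer of outer hair cells, had 0 UMIs in both genotypes.

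Pcp4 and Anxa4 were detected in both genotypes and were higher in GAP cells. Pcp4 encodes a small IQ-motif protein that binds calmodulin and alters its exchange of calcium. It ranged from 0 to 3353 CPM over GAP cells and from 0 to 628 CPM over control cells, with a median of 0 in each. UMIs were in 89 GAP cells and 15 control cells, so the ranges overlapped and the upper end was far higher in GAP cells. The level was 243 CPM in GAP cells (230 to 257) and 13.5 CPM in control cells (10.1 to 17.6), and the ratio was 18.03 (13.7 to 24.1). In letters C and D it was 302 and 172.4 CPM, and in letters A and B 14.1 and 12.9 CPM. Of the Pcp4 exon bases (chr16:96467606-96525793, plus strand), 23.7% are also exon of the neighbour Igsf5 on the same strand. Igsf5 was at 12.3 CPM in GAP cells and 40.99 CPM in control cells, opposite to Pcp4.

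Anxa4, an annexin that binds membrane phospholipid when calcium is present, was found in more GAP cells than any other of the 6 genes that were higher there. Its median over cells was 107.96 CPM in GAP cells (0 to 1132) and 0 in control cells (0 to 537). It had UMIs in 76.7% of GAP cells and 21.1% of control cells, and at equal depth in 56.1% (48.5 to 63.5) and 11.3% (7.04 to 16.9). The pooled level was 228 CPM in GAP cells (215 to 241) and 25.7 CPM in control cells (21.01 to 31.2), and the ratio was 8.85 (7.23 to 10.9). Letters C and D were at 255 and 195 CPM and letters A and B at 19.2 and 32.2 CPM, so neither range of letters met the other. The gene lies at chr6:86736840-86793584 on the minus strand.

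**Figure D2:**
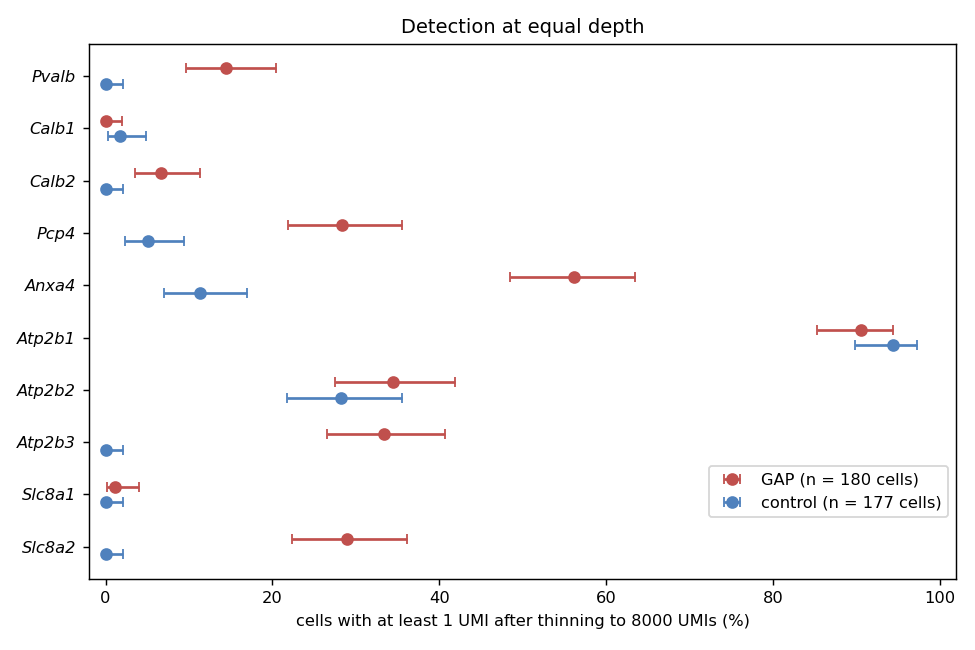
Share of cells with at least 1 UMI of each gene (x axis, %) after thinning each cell to 8000 UMIs, in 180 GAP cells (red, above) and in the control cells deep enough for it, all but 3 (blue, below). Bars are exact Clopper-Pearson 95% intervals. The intervals of GAP and control cells are apart for Pvalb, Calb2, Pcp4, Anxa4, Atp2b3 and Slc8a2 and overlap for Calb1, Atp2b1, Atp2b2 and Slc8a1.

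Among the pumps, Atp2b1 was at a like level in both genotypes and Atp2b3 had UMIs in GAP cells and 0 in control cells. Atp2b1, the broadly expressed PMCA1 gene (chr10:98914406-99026143, plus strand), had a median of 501 CPM over GAP cells (0 to 1782) and 523 CPM over control cells (0 to 1922). It was found in all but 2 GAP cells and all but 1 control cell, and the groups overlapped along the whole range. The pooled level was 529 CPM in GAP cells (509 to 548) and 594 CPM in control cells (570 to 618), and the ratio was 0.890 (0.843 to 0.941). By letter it was 544 and 510 CPM in C and D and 558 and 629 CPM in A and B, so both GAP letters lay below both control letters, and the pooled genotypes differed by less than letters A and B did.

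Atp2b2, the hair bundle pump gene (chr6:113743831-114042613, minus strand), was within counting error of control cells in the GAP group. The median cell had 25.8 CPM in GAP cells (0 to 1996) and 0 in control cells (0 to 1564), and the ranges overlapped. Its level was 122.4 CPM in GAP cells (113.2 to 132.2) and 116.2 CPM in control cells (105.9 to 127.3), and the ratio was 1.05 (0.934 to 1.19). The letters ran from 105.8 (C) to 142.4 CPM (D) in GAP cells and from 90.2 (A) to 141.8 CPM (B) in control cells. The sign of the log2 ratio changed under 4 of 15 alternative settings, with -0.21 without letter A and 0.44 without letter B. The 15 include other filters on level, which cannot change a ratio. At equal depth 34.4% of GAP cells (27.5 to 41.9) and 28.2% of control cells (21.7 to 35.5) had a UMI.

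Atp2b3 (chrX:73503086-73571005, plus strand), the gene of PMCA3, which is otherwise best known from neurons, had 648 UMIs in 100 GAP cells and 0 UMIs in control cells. Cells ranged from 0 to 920 CPM in the GAP group, with a median of 28.5 CPM, and control cells were all at 0. The level was 120.8 CPM in GAP cells (111.6 to 130.4), at least 161.05-fold above the limit in control cells, and 130.02 and 109.6 CPM in letters C and D. The 5 cells with most UMIs held 20.8%, so it was spread more evenly than Pvalb or Calb2. At equal depth 33.3% of GAP cells (26.5 to 40.7) had a UMI.

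Counting all 4 pump genes, the PMCA UMIs of GAP cells were 61.7% Atp2b1 (60.3 to 63.1), 14.3% Atp2b2, 14.1% Atp2b3 (13.1 to 15.1) and 9.94% Atp2b4. Those of control cells were 76.3% Atp2b1 (74.8 to 77.8), 14.9% Atp2b2 and 8.71% Atp2b4, with 0 of 3112 UMIs from Atp2b3, which by the limit of 3 counts allows up to 0.0964%. The sum of the family was 857 CPM in GAP cells and 778 CPM in control cells, so the family totals were within 2-fold. Because whole-transcript counts grow with length, levels of different genes were set against each other per kilobase of exon. On that scale the level in GAP cells was 34.7 CPM per kb for Atp2b1, 9.71 for Atp2b2, 25.1 for Atp2b3 and 6.95 for Atp2b4. In control cells it was 39.02, 9.21, 0 and 5.53 CPM per kb in the same order. As shares of the family per length, GAP cells held 45.4% Atp2b1, 12.7% Atp2b2, 32.8% Atp2b3 and 9.09% Atp2b4, and control cells 72.6%, 17.1%, 0% and 10.3%. Counts per gene cannot tell apart the splice forms of a pump, which in hair cells matter for where PMCA2 goes. Atp2b4, which is not among the 10 genes, was at 85.2 CPM in GAP cells and 67.7 CPM in control cells (ratio 1.26, 1.08 to 1.47), with 104.1 and 62.4 CPM in letters C and D and 79.1 and 56.5 CPM in letters A and B.

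**Figure D3:**
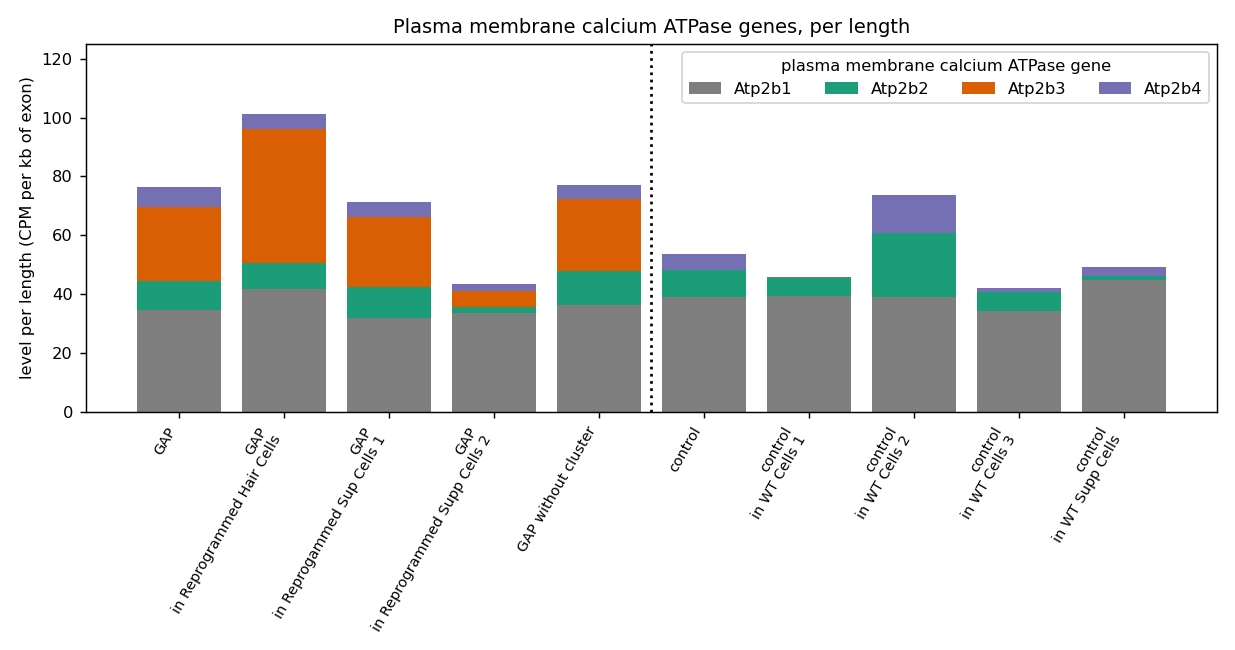
Stacked level of the 4 plasma membrane calcium ATPase genes per kb of exon (y axis, CPM per kb) in GAP cells and their larger sets (left of the dotted line) and in control cells and their clusters (right). Atp2b3 (orange) is the layer that control sets lack, 45.5 CPM per kb in the Reprogrammed Hair Cells, and Atp2b1 (grey) stays between 31.9 and 44.8 CPM per kb in the sets drawn.

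Over all GAP cells, most exchanger UMIs came from a single paralog. Slc8a2 (chr7:16129826-16161063, plus strand) is the NCX2 gene, known mainly from brain. It had 688 UMIs in 82 GAP cells, ranging from 0 to 965 CPM with a median of 0, and 0 UMIs in control cells. The level was 128.2 CPM in GAP cells (118.8 to 138.2), at least 170.996-fold above the limit in control cells, and 144.7 and 108.4 CPM in letters C and D. At equal depth 28.9% of GAP cells (22.4 to 36.1) and 0 control cells had a UMI. Slc8a1, the NCX1 gene of heart and many other tissues (chr17:81373105-81738377, minus strand), had 17 UMIs in 8 GAP cells and 2 UMIs in 1 control cell. That is 3.17 CPM (1.85 to 5.07) in GAP cells and 0.4998 CPM in control cells, with the ratio at 6.34 (1.504 to 56.6) between values below 10 CPM. Letter C held 15 of the 17 UMIs, at 5.12 CPM, and letter D 2 UMIs, at 0.821 CPM, and the log2 ratio was 1.47 over all cells and 0.28 without letter C. Slc8a3, which is not among the 10 genes, had 9 UMIs in GAP cells and 8 in control cells. Of the NCX UMIs of GAP cells Slc8a2 made up 96.4% (94.7 to 97.6), or 98.1% per length, and 0 of the 10 NCX UMIs in control cells were from it. The make-up was not the same in every cluster, since 5 of the 9 NCX UMIs of GAP cells in Reprogrammed Unknown 1 and 2 of the 5 in Reprogrammed Unknown 2 were Slc8a1.

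The authors' cluster assignments split the GAP cells further, and were used as deposited, with their names and spelling. The authors made these clusters from the same cells, so levels by cluster are descriptions. In the 51 GAP cells of the Reprogrammed Hair Cells cluster, Pcp4 was at 571 CPM, Atp2b1 at 634, Atp2b3 at 219, Anxa4 at 201, Pvalb at 144.7, Slc8a2 at 118.4 and Calb2 at 2.77 CPM. In the 54 cells of Reprogammed Sup Cells 1, Anxa4 was at 287 CPM, Slc8a2 at 161.2, Pcp4 at 136.4, Atp2b3 at 114.4, Pvalb at 47.3 and Calb2 at 23.7 CPM. The larger pooled level was thus in Reprogrammed Hair Cells for Pvalb, Pcp4 and Atp2b3, and in Reprogammed Sup Cells 1 for Anxa4, Slc8a2 and Calb2. For Pvalb, Pcp4 and Atp2b3 the shares of cells with a UMI were closer or turned. They were 31.4% in Reprogrammed Hair Cells and 31.5% in Reprogammed Sup Cells 1 for Pvalb, 52.9% and 57.4% for Pcp4, and 62.7% and 70.4% for Atp2b3. At equal depth they were 23.5% (12.8 to 37.5) and 9.26% (3.08 to 20.3) for Pvalb, 43.1% and 33.3% for Pcp4, and 45.1% and 40.7% for Atp2b3. The intervals overlapped for each. For the other genes the shares at equal depth were larger in Reprogammed Sup Cells 1, as the levels were. In Reprogrammed Hair Cells and Reprogammed Sup Cells 1 they were 47.1% and 72.2% for Anxa4, 23.5% and 42.6% for Slc8a2, and 1.96% and 13% for Calb2. These intervals overlapped too. In the 20 cells of Reprogrammed Supp Cells 2, Calb2 was at 38.02 CPM, Slc8a2 at 40.9 and Atp2b3 at 26.3 CPM. These are 13, 14 and 9 UMIs in 2, 6 and 6 cells, and a single cell held 69.2%, 57.1% and 44.4% of them. The spread over cells of these clusters overlapped throughout. A further 15 GAP cells stood in the authors' WT clusters, with 17.5 CPM of Atp2b3, 20.4 CPM of Slc8a2 and 0 UMIs of Pvalb. Anxa4 was at 69.9 CPM in them and 24.4 CPM in the control cells of those clusters (ratio 2.87, 1.74 to 4.56), and Atp2b2 at 189.3 and 114.1 CPM (1.66, 1.26 to 2.16). Of the 65 Atp2b2 UMIs of these GAP cells, 49 were in WT Cells 2, where 2 of 5 GAP cells had a UMI. At equal depth 26.7% of the GAP cells and 27.2% of the control cells of the WT clusters had an Atp2b2 UMI. Atp2b3 and Slc8a2 were at 0 in all of those control cells.

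Set against the control cells of the WT clusters, 5 of 7 genes at 10 CPM were higher in Reprogrammed Hair Cells and 0 lower, where 17.5% of all genes were higher and 11.9% lower. In Reprogammed Sup Cells 1 the counts were 6 higher and 0 lower of 8, against 14.5% and 11.8%. In Reprogrammed Supp Cells 2 they were 5 higher and 1 lower of 7, against 20.3% and 18.5%, and 3 genes were higher there without letter C. Pcp4 is among the 5, with a log2 ratio of 1.36 that turned to -0.21 without the cell holding most of its UMIs. The lower gene there was Atp2b2, at 23.4 CPM in Reprogrammed Supp Cells 2 and 114.1 CPM in the control cells of the WT clusters (ratio 0.205, 0.0879 to 0.408). The bundle pump gene was at 114.2 CPM in Reprogrammed Hair Cells, a ratio of 1.001 (0.830 to 1.20), and at 133.5 CPM in Reprogammed Sup Cells 1 (1.17, 0.992 to 1.38). Its level also differed among control clusters, with 276 CPM in WT Cells 2, 73.1 in WT Cells 1, 79.2 in WT Cells 3 and 17.4 CPM in WT Supp Cells. In Reprogrammed Unknown 1 the counts were 4 higher and 1 lower of 7, against 19.9% and 25.3%, and in Reprogrammed Unknown 2 they were 5 and 0 of 7, against 18.5% and 22.1%. In Unknown 1, Atp2b3, Slc8a1 and Slc8a2 are among the 4 on 6, 5 and 4 UMIs. In Unknown 2, Atp2b3 is among the 5 on 4 UMIs of 1 cell, Pvalb and Slc8a2 on 3 UMIs each, and Pcp4 with a log2 ratio of 1.61 that turned to -0.57 with thinning and -0.83 without letter C. In the GAP cells of WT clusters 3 genes of 6 were higher and 0 lower, against 12.5% and 15.6%. Atp2b3 is among the 3 on 6 UMIs of 5 cells and Slc8a2 on 7 UMIs of 3 cells. At equal depth 2 of these 15 GAP cells had an Atp2b3 UMI and 0 a Slc8a2 UMI. In the GAP cells with no cluster 6 of 8 were higher and 0 lower, against 19.2% and 12.7%. Atp2b3 made up 44.95% of the PMCA level per length in Reprogrammed Hair Cells, beside 41.1% for Atp2b1 and 8.94% for Atp2b2. Before division by length Atp2b1 was well above Atp2b3 in these cells, with 916 UMIs against 317. The order per length thus depends on the lengths used, which join all annotated exons (15.2 kb for Atp2b1 and 4.82 kb for Atp2b3).

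**Figure D4:**
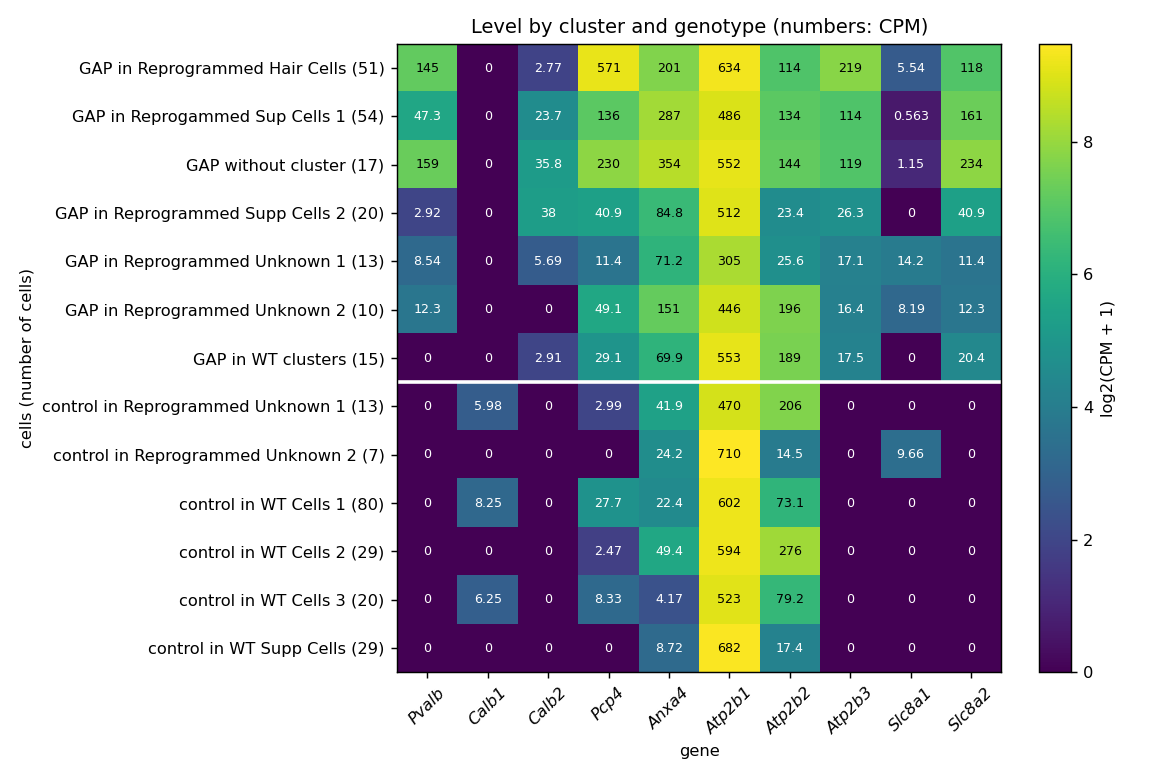
Level of the 10 genes (columns) in the sets of GAP cells (above the white line) and control cells (below), by the authors' clusters, with the number of cells in brackets. Colour is log2(CPM + 1) and the printed numbers are CPM. Columns Pvalb, Calb2, Atp2b3 and Slc8a2 are 0 in every control row, and Pvalb, Pcp4 and Atp2b3 are higher in the Reprogrammed Hair Cells row (144.7, 571 and 219 CPM) than in the Reprogammed Sup Cells 1 row (47.3, 136.4 and 114.4 CPM).

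The only cluster with at least 10 cells of each genotype was Reprogrammed Unknown 1, with 13 GAP and 13 control cells. Of 7 genes at 10 CPM there, 4 were higher and 1 lower in GAP cells, where 24.4% of all genes were higher and 26% lower. The 4 rest on few UMIs. Pcp4 had 4 UMIs in GAP cells and 1 in control cells (ratio 3.81, 0.377 to 187), and Atp2b3, Slc8a1 and Slc8a2 had 6, 5 and 4 UMIs in GAP cells and 0 in control cells, which is at least 1.90-fold, 1.59-fold and 1.27-fold higher. The median log2 ratio over the 10 genes there was 2.19, and 0.71 with these 3 genes at their bound. Atp2b2 was the lower one, at 25.6 CPM in GAP cells and 206 CPM in control cells (ratio 0.124, 0.0545 to 0.250). It was at 31.8 CPM in the 11 cells of letter C and had 0 UMIs in the 2 cells of letter D, against 224 and 193.1 CPM in letters A and B. Atp2b1 was at 305 and 470 CPM (0.648, 0.502 to 0.834). The level of Slc8a2 was 11.4 CPM in these GAP cells, that of Slc8a1 14.2 CPM and that of Atp2b3 17.1 CPM.

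In single GAP cells the genes that were higher were found together to differing degrees. At 8000 UMIs, 25 of the 52 cells with a Slc8a2 UMI also had Atp2b3 (48.1%), against 27.3% of the cells without Slc8a2. Of the 26 cells with Pvalb, 16 had Pcp4 (61.5%), against 22.7% of the cells without Pvalb. The share with Pvalb was close in cells with and without Calb2, at 2 of 12 cells (16.7%) and 14.3%. Atp2b1 was found in 25 of the 26 cells with Pvalb (96.2%), against 89.6% of the cells without it, and in 9 of the 12 cells with Calb2 (75%), against 91.7% of the cells without it. These shares describe cells of a single sample, and no test was made.

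**Figure D5:**
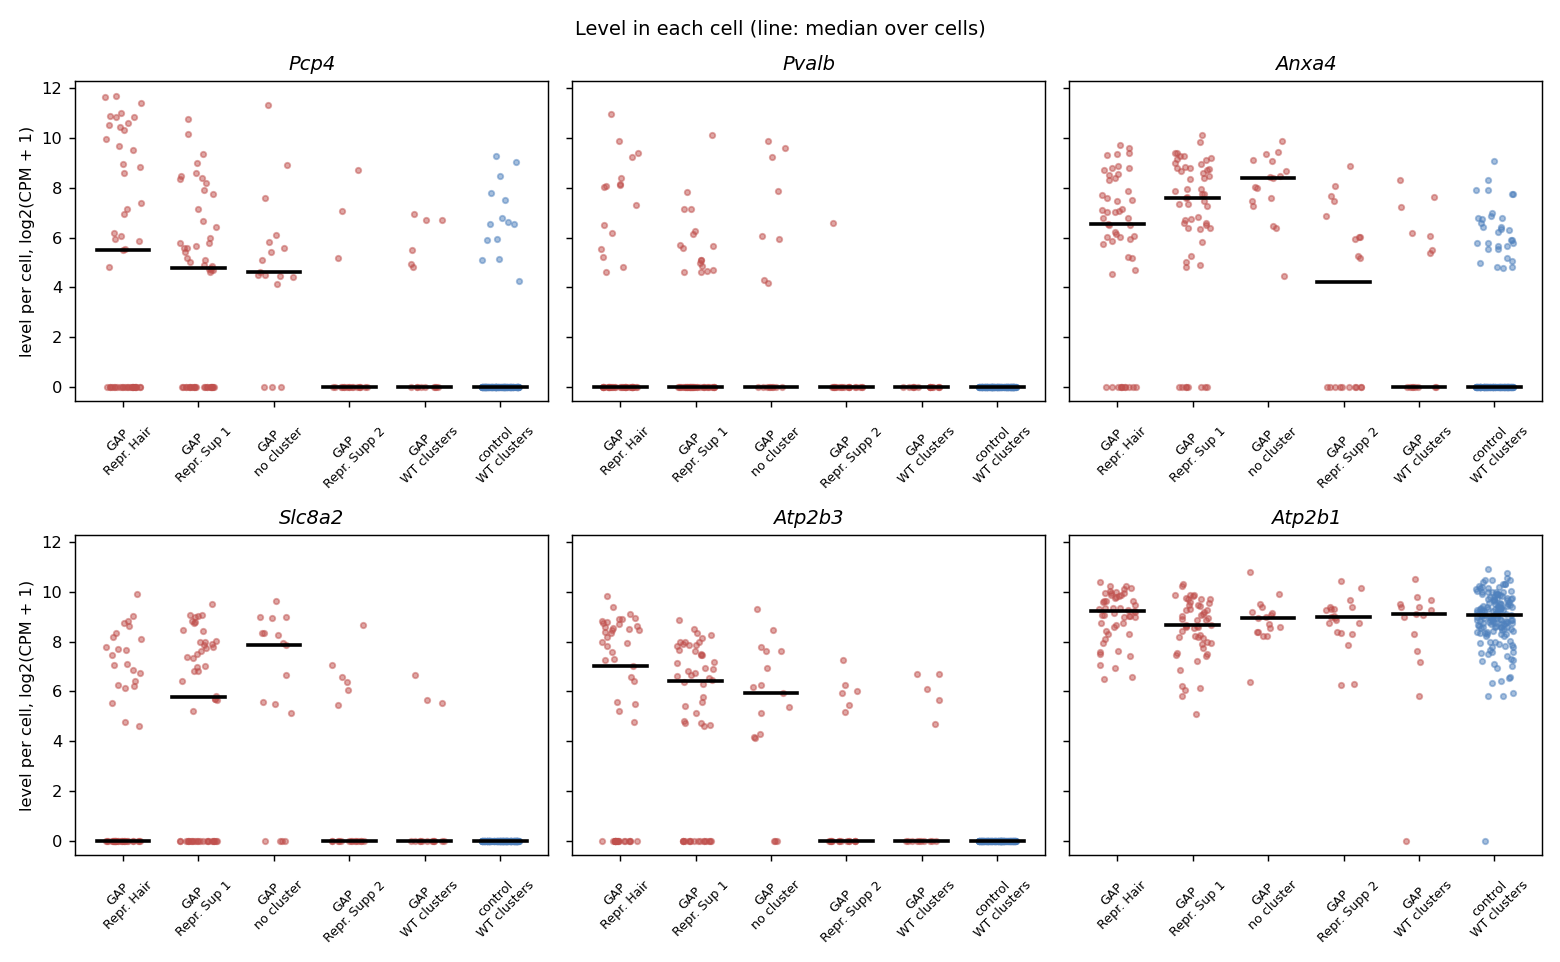
Level of 6 genes in each cell, as log2(CPM + 1) on the y axis, in 5 sets of GAP cells (red, left) and the control cells of the WT clusters (blue, right), with the median as a black line. Pvalb, Atp2b3 and Slc8a2 have no control cell above 0, Anxa4 reaches a median above 0 in 4 of the GAP sets, and Atp2b1 has similar medians in every set.

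The wider calcium machinery was described through 5 lists with 76 genes, of which 75 are in the matrix and 49 reached 10 CPM. By the 2-fold rule 11 were higher in GAP cells and 2 lower, or 4 lower without letter A and 5 without letter C, where 13% of all genes were higher and 6.61% lower. Among 10 other EF-hand and calmodulin genes, 5 were higher and 0 lower (median log2 ratio 1.03). Cabp2, the calcium-binding protein that tunes hair cell calcium channels, was at 76.4 CPM in GAP cells and 0.250 CPM in control cells from a single UMI (ratio 306, 54.6 to 12104). Pcp4l1, the relative of Pcp4, was at 66.5 and 0.250 CPM (266, 47.5 to 10543), again with 1 UMI in control cells. S100a1 was the most abundant, at 7689 CPM in GAP cells and 4945 CPM in control cells (1.55, 1.53 to 1.58).

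Calcium stores hold the ion inside the cell, in the endoplasmic reticulum, the Golgi and the mitochondria. Of 17 endoplasmic reticulum and Golgi genes, 5 were higher and 0 lower, and the median log2 ratio was 0.053, close to the 0.098 of all genes. Rcn1, a calcium-binding protein of the lumen, was at 650 CPM in GAP cells and 51.7 CPM in control cells (12.6, 10.9 to 14.5), and Atp2a3, a SERCA pump gene, at 22.5 and 1.25 CPM (18.04, 7.52 to 56.6), with 29.3 and 14.4 CPM in letters C and D. Itpr1, the inositol trisphosphate receptor gene, was at 502 CPM in GAP cells and 808 CPM in control cells (0.621, 0.590 to 0.654). None of the 10 mitochondrial calcium genes was 2-fold apart in either direction, among them Mcu, the uniporter pore, at 37.6 and 24.7 CPM (1.52, 1.19 to 1.96). Of 4 other surface transporters and partners none was higher and Slc24a3, a potassium-dependent exchanger gene, was lower, at 9.13 CPM in GAP cells and 24.7 CPM in control cells (0.369, 0.257 to 0.525). That call rests on letter B, since Slc24a3 was at 13.3 (C) and 4.10 CPM (D) in GAP cells and at 12.6 (A) and 36.7 CPM (B) in control cells.

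Of 8 other annexins at 10 CPM, 1 was higher and 1 lower, where 13% and 6.61% of all genes were. Anxa3 was the higher one, at 21.4 CPM in GAP cells and 1.25 CPM in control cells (17.1, 7.14 to 53.8). This rests on letter C, since the GAP letters were at 33.8 (C) and 6.57 CPM (D), the second of them under 10 CPM. Anxa9 was lower, at 27.02 CPM in GAP cells and 229 CPM in control cells (0.118, 0.0985 to 0.141). The median log2 ratio over the 8 was -0.40. The most abundant, Anxa5, was at 1435 CPM in GAP cells and 1216 CPM in control cells (1.18, 1.14 to 1.22). Its GAP letters were at 1342 (C) and 1546 CPM (D), and the control letters at 1709 (A) and 731 CPM (B) lay on either side of both.

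Over the 9 authors' clusters, with both genotypes pooled in each, the levels most like those of a member were found among 12362 genes by the correlation of log2(CPM + 1). For Slc8a2 they were Psat1 (r = 0.987), Myo6 (0.982) and Clrn1 (0.977), for Atp2b3 Wwc1 (0.985), Pou4f3 (0.977) and Runx1t1 (0.973), and for Pvalb Pitpna (0.975), Sult4a1 (0.963) and Dync2h1 (0.957). The closest for Anxa4 was Spock2 (0.983), for Atp2b1 Cask (0.927) and for Atp2b2 Zfp658 (0.962). Clusters share letters and differ in depth, 9 points are few for so many genes, and no p is given. Pou4f3 is also part of the GAP allele, so its counts cannot tell apart the transgene and the native gene.

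Neurons end on hair cells in the cochlea, and some of the genes described are also neuronal. The summed level of 11 spiral ganglion neuron markers was 241 to 286 CPM in the GAP letters and 163.3 to 172.02 CPM in the control letters. Of the 11 genes, 7 had a UMI in GAP cells and 3 in control cells, and Tubb3, Nefl, Prph and Scn9a were at 0 in GAP cells. The part of these markers in the levels of Slc8a2 and Atp2b3 was not tested.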

How the data were processed

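The matrix holds exon UMI counts per gene and cell, deposited by the authors with no normalization, and STAR, HTSeq and the mm10 build are named per the submitters' processing notes. Versions, annotation, the collapsing of UMIs and the strand setting, each not given in the sources used here, could not be checked, and overlapping genes, such as Pcp4 and Igsf5, may share counts. All 360 columns of counts were matched to samples by title, 0 were left over, and no 2 columns were identical. The authors' annotation gives 341 cells 1 of 9 clusters, and the other 19 cells stayed out of comparisons of clusters. No doublet caller was run, since cells were sorted singly into wells.

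For each set of cells the UMIs were added up and scaled to CPM. Since no animals are named, no p-value was computed. Where a group has 0 counts, its limit is 3 counts over the group, from which a fold is computed as a lower bound. Total UMIs were 5366362 in GAP cells and 4001274 in control cells, which puts this limit at 0.559 and 0.750 CPM. Exon lengths are unions of GENCODE M21 exons (GRCm38), in which 48058 of the 48440 gene IDs were found. The ratio computation was tested on simulated data, drawn as pooled Poisson counts with no spread between cells, letters or animals. The members and the gene lists were chosen with earlier results of these data known. Named were the 10 genes, of each list the 3 genes with most UMIs and, at 10 CPM, the 2 with the highest and the 2 with the lowest ratio, and the 3 genes closest over clusters to each member with at least 100 UMIs. From these, the text gives the ones that show a count or a range. A few of them are not reported here. Alternatives were another weighting of cells, TMM (edgeR 4.0.16, R 4.3.3) and median-of-ratios scaling, other filters, 10 CPM added, thinning to 8000 or 4000 UMIs, a minimum of 15000 UMIs per cell, and leaving out each letter, the cells without a cluster, the transgene genes or the highest cell. Python 3.11.15 with numpy 2.4.6, pandas 2.3.3, scipy 1.17.1 and matplotlib 3.10.9 was used.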

Additional observations from a re-analysis of the deposited data

Results flagged for a closer look

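The 17 GAP cells that the authors left without a cluster belong to no cluster comparison, and 6 of the 10 genes were nevertheless found in them well above the control cells. Pvalb was at 159.3 CPM, Calb2 at 35.8 CPM, Pcp4 at 229.7 CPM, Anxa4 at 354 CPM, Atp2b3 at 118.9 CPM and Slc8a2 at 234 CPM in these cells. In the control cells of the WT clusters, Pcp4 was at 15.4 CPM, Anxa4 at 24.4 CPM and the other 4 had 0 UMIs. The UMIs were in 3 of the 17 cells for Calb2 and 8 for Pvalb, in 13 for Slc8a2, in 14 each for Pcp4 and Atp2b3, and in all 17 for Anxa4. For Pvalb, Calb2, Anxa4 and Slc8a2 these levels exceeded the 81.6, 17.3, 228 and 128.2 CPM of all GAP cells, which include these 17. The 17 cells had a median of 49455 UMIs, against 28963 for all GAP cells, and the part of this depth in the levels was not tested.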

How the results depend on the processing

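Across 15 alternatives Pvalb, Calb2, Pcp4, Anxa4, Atp2b3 and Slc8a2 were at least 2-fold higher in GAP cells in each. The settings with a 50 CPM filter and with no filter change only which genes are counted, so they could not change these ratios. Over genotypes the count of 6 members higher became 5 at 50 CPM and 7 with no filter. The count of 0 members lower became 1 with no filter, over genotypes and also in Reprogammed Sup Cells 1 and Reprogrammed Hair Cells. In Reprogammed Sup Cells 1 both Pvalb (47.3 CPM) and Calb2 (23.7 CPM) were under the 50 CPM filter. In Reprogrammed Supp Cells 2 the 5 higher became 1 at 50 CPM, and ran from 3 to 5 with a letter left out. Pcp4 turned there to a log2 ratio of -0.21 without its highest cell, and ran from -4.03 (without letter C) to 2.55 with a letter left out. In Reprogrammed Unknown 2 it turned to -0.57 with thinning and ran from -0.83 (without letter C) to 2.47. All genes higher and lower were 831 and 403 with 10 CPM added, 484 and 349 at 50 CPM, and 2851 and 1313 with no filter, beside 1320 and 671. Pathway genes higher were 7 at 50 CPM and 19 with no filter. Pathway genes lower were 1 with 10 CPM added, 1 at 50 CPM, 4 with no filter, 4 in cells of at least 15000 UMIs, and 2 to 5 with a letter left out. Atp2b1 made up 64.2% of PMCA UMIs in GAP cells and 78.7% in control cells with thinning, and Atp2b3 12.4% in GAP cells with thinning and 12.7% as a mean over cells. Slc8a2 made up 98.2% of NCX UMIs in GAP cells with thinning, 97.7% without its highest cell, and 94.6% to 99.2% with a letter left out. The causes were not tested. No paired analysis was possible because no animals are named and each letter holds cells of 1 genotype. Depth limits the shares of cells for Calb1 and Slc8a1, which rest on 19 UMIs or fewer in a genotype.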
